A study of Homo sapiens with 6 samples.

Results

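The death complex of the tumour necrosis factor (TNF) receptor was examined through 8 genes: the adaptors TRADD and FADD, the kinases RIPK1 and RIPK3, the pseudokinase MLKL, the caspases CASP8 and CASP10, and CFLAR, which encodes the caspase inhibitor c-FLIP. Members were taken by their gene symbol, and all 8 were among the 58735 genes listed. RNA sequencing had been performed on U251, an established human glioblastoma cell line. The NC group (n = 3) was given sterile deionized water in the same volume, and the TNF-α group (n = 3) received recombinant human TNF-α at 10 ng/mL for 24 h. All 6 cultures were of this 1 line, grown in DMEM with fetal bovine serum, and the labels describe the 3 samples of each group as independent biological replicates. The comparison asks what this low dose of TNF-α did to the RNA of the genes that carry the death signal. Being bulk RNA, the values cannot tell more RNA per cell from more cells that express a gene.

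When TNF-α binds its receptor TNFR1, TRADD and RIPK1 assemble at the membrane and, as long as RIPK1 carries ubiquitin chains, the complex signals to NF-κB and the cell survives. When RIPK1 is released from this control, FADD and caspase-8 join it in the cytosol and apoptosis can follow, unless c-FLIP pairs with caspase-8 and restrains it. When caspase-8 is blocked, RIPK1 and RIPK3 can phosphorylate MLKL, which then disrupts the plasma membrane, a death called necroptosis. CFLAR is a classical NF-κB target, and MLKL is known as an interferon-responsive gene.

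Expression was deposited as FPKM, fragments per kilobase of gene scaled to the size of the library, and the fragments themselves could be recovered as whole numbers, 31992167 to 37897044 per library. Of 10 glial and glioblastoma markers, 7 had a mean FPKM of at least 1. AQP4 was at 0, S100B at up to 0.168 and CHI3L1 at up to 0.0226. The summed FPKM of the 10, of which VIM was the highest, was 634 to 687 in NC and 757 to 1236 in TNF-α. They did not move together: VIM was 325 to 362 FPKM in NC and 434 to 974 in TNF-α, and GFAP 7.10 to 9.47 and 1.58 to 2.60. SOX2 was 58.9 to 66.3 in NC and 57.8, 22.6 and 30.4 in TNF-α. None of 6 leukocyte and microglia markers had a mean of at least 1, with PTPRC and CD3E at 0 and CD14 at up to 1.55 (summed FPKM 0.869 to 1.16 in NC and 0.654 to 1.67 in TNF-α). Of 5 neuron markers, 2 had a mean of at least 1 (summed FPKM 6.38 to 6.67 in NC and 3.21 to 6.02 in TNF-α), and none of 4 endothelial and 4 oligodendrocyte markers did. TNF-α replicates 2 and 3 stood apart from the other 4 libraries: long genes (over 8 kb) accounted for 16.6% and 17.9% of reads there and for 28.8% to 29.1% elsewhere, and ribosomal protein genes for 7.30% and 6.26% there and 2.62% to 2.90% elsewhere. Because of this, every member is given below in each library, and the part of this composition in any result was not tested. Genes with FPKM of at least 1 in at least 3 libraries were tested (12136 genes, 6 of the 8 members) with limma on log2(FPKM + 1), two-sided, and an adjusted p (Benjamini-Hochberg over all tested genes) under 0.05 was the threshold. It was passed by 123 genes, 1.01% of those tested.

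CFLAR, CASP10 and CASP8 lie side by side on the long arm of chromosome 2 in the same orientation (GRCh38, plus strand): CFLAR at chr2:201116104-201176687, CASP10 at chr2:201182881-201229406 and CASP8 at chr2:201233443-201287711. The gaps between them were 6193 and 4036 bases, and the whole locus spanned 171608 bases. RefSeq promoter windows (GRCh38.p14, 250 bases before to 50 after each start site) were found for 5 members, 12 windows in all: 4 for CFLAR, 3 each for CASP8 and RIPK1, and 1 each for FADD and MLKL. They were searched on both strands for 2 motifs, the NF-κB consensus and the interferon-stimulated response element (ISRE) core, which is GAAA, any 2 bases, then GAAA again. Of the 35116 promoters in the table, 5.91% held the first and 3.57% the second. The stretches below are shown because CFLAR and MLKL were at least 1.54 times their NC mean in all 3 TNF-α libraries, while CASP8 and RIPK1 hold the ISRE matches. Capitals mark the NF-κB match in CFLAR and the ISRE core in CASP8 and RIPK1, and the MLKL stretch, in which neither motif matched, has no capitals. The positions are chr2:201118466-201118715 for CFLAR, chr2:201233213-201233469 for CASP8, chr6:3068128-3068377 for RIPK1 (all plus strand) and chr16:74700863-74701112 for MLKL (minus strand).
CFLAR: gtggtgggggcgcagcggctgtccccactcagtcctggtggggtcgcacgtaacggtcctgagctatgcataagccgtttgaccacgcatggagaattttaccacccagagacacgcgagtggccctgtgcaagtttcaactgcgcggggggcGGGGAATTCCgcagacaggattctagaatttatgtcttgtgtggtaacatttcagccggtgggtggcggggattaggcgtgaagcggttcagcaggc
CASP8: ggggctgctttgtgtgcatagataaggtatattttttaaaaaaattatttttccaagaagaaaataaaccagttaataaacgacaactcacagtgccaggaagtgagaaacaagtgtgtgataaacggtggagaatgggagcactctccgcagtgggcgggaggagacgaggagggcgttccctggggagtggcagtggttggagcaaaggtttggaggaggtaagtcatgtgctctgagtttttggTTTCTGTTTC
RIPK1: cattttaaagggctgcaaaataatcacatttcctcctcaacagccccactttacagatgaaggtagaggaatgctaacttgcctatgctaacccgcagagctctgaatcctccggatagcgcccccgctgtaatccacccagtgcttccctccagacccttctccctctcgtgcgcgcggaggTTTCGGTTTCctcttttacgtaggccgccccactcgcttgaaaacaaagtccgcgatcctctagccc
MLKL: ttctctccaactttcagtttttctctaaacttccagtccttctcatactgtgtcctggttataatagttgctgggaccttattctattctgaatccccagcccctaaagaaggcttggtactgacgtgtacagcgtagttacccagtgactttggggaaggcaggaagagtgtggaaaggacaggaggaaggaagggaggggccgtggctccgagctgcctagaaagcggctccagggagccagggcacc
The CFLAR match began 97 bases upstream of the start site of its most 5′ window, and its other 3 windows held no match. In CASP8, the ISRE core began 3 bases upstream of the start and ran across it. In RIPK1, the same ISRE site fell into overlapping windows, 67 bases upstream of one start and 183 bases upstream of the other. The MLKL and FADD windows held no match to either. A match is a run of letters and no evidence of binding, and no binding was measured here.

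In NC cells the members differed widely in level. Per kilobase of merged exons, RIPK1 was the highest (mean FPKM 22.2 ± 0.598, SD, n = 3), followed by TRADD (12.4 ± 0.322), FADD (9.31 ± 1.40), MLKL (5.64 ± 0.308), CASP8 (3.33 ± 0.0857) and CFLAR (2.84 ± 0.0382). No neighbours in this order had overlapping NC values. RIPK1 stood at percentile 89.1 of 19951 protein-coding genes and CFLAR at percentile 57.6, with CASP10 at 31.9. The lower part of the order depended on the length used, since the merged exons of CFLAR add up to 22529 bases and those of CASP8 to 7243 bases, but their principal transcripts measure 14672 and 1629 bases. Per kilobase of principal transcript, CASP8 reached 14.8 in NC, above MLKL (12.7), FADD (9.31) and CFLAR (4.36), and below RIPK1 (22.5) and TRADD (17.0). With TNF-α and merged exons, TRADD (13.9 to 37.0) and RIPK1 (23.2 to 24.2) overlapped, as did FADD (9.94 to 13.2) and MLKL (9.25 to 11.4).

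None of the 6 tested members passed the threshold, beside the 1.01% of all genes that did, and none did with limma-voom on the recovered reads. At an unadjusted p under 0.05, 3 of the 6 (TRADD, MLKL and CFLAR) had a higher level with TNF-α, against 12.3% of all tested genes, and in 4 (these and RIPK1) every TNF-α library lay above every NC library, against 14.8% of all tested genes. The estimate was above 0 for all 6, with a median of 0.43 on the log2 scale, where the median over all tested genes was 0.04 and 6432 of 12136 genes were above 0. Relative to the NC mean, the median of the 6 was 0.21, 0.46 and 0.50 in TNF-α replicates 1, 2 and 3, and that of all tested genes was -0.01, 0.08 and 0.05. With 3 libraries against 3, an exact two-sided permutation test of 1 gene cannot give a p under 0.1.

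**Figure D1:**
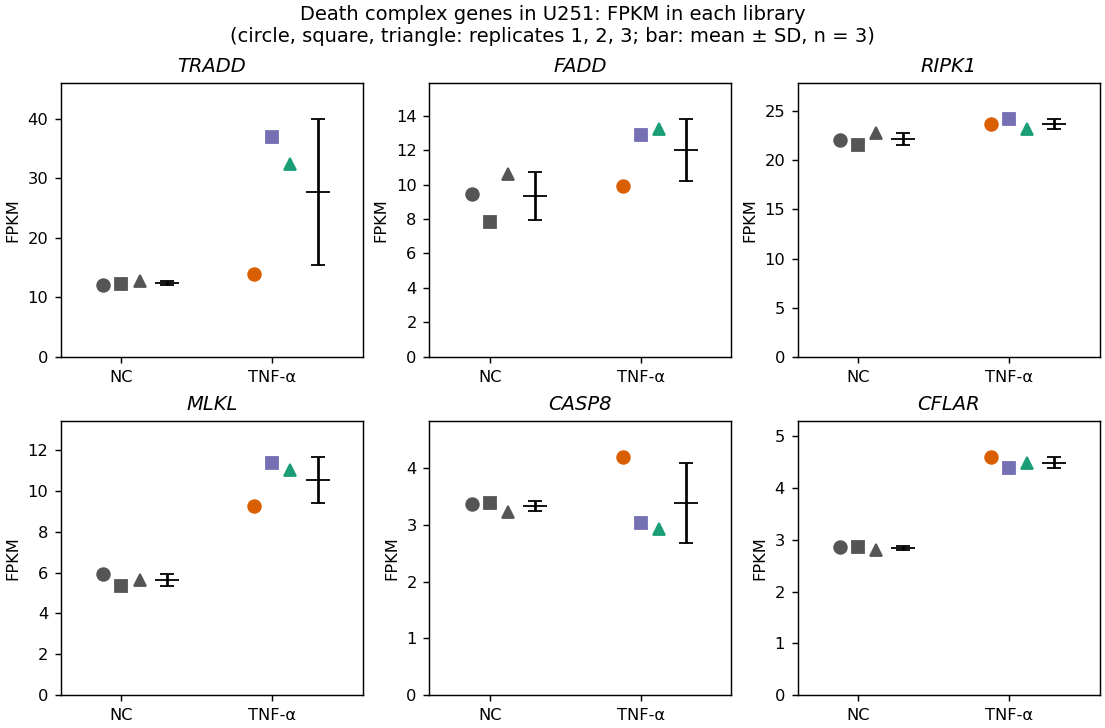
FPKM (y axis, linear from 0) of the 6 tested members in each NC (grey) and TNF-α (coloured) library, with the mean ± SD of 3 libraries as a bar beside the points. MLKL and CFLAR are above every NC library in all 3 TNF-α libraries, whereas TRADD is far above NC only in replicates 2 and 3 and CASP8 only in replicate 1.

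TRADD (ENSG00000102871, chr16:67154180-67160298, minus strand), the adaptor that binds the death domain of TNFR1, measured 12.1, 12.3 and 12.8 FPKM in NC and 13.9, 37.0 and 32.5 in TNF-α. The first TNF-α library lay just above the NC range, at 1.12 times the NC mean, and the other 2 stood at 2.98 and 2.62 times. The means were 12.4 ± 0.322 and 27.8 ± 12.3 (SD, n = 3 each), and the log2 difference of 0.99 (SE 0.36, 95% CI 0.13 to 1.86) did not pass the threshold (limma, adjusted p = 0.195). Replicate 1 alone against NC gave a log2 difference of 0.15, and replicates 2 and 3 against NC gave 1.41 (limma, adjusted p = 1.07e-05), in a fit that put 79.4% of all tested genes past the threshold. TRADD is short (2567 bases of merged exons) and rich in G and C (65.0%), and in those same 2 libraries the median of the 3520 tested genes of up to 3 kb was 0.66 and 0.54. With a GC and length correction of each library the log2 difference was 0.27.

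FADD (ENSG00000168040, chr11:70203163-70207390, plus strand), which bridges death receptors and caspase-8, measured 9.46, 7.85 and 10.6 FPKM in NC and 9.94, 12.8 and 13.2 in TNF-α. The groups overlapped, with TNF-α replicate 1 inside the NC range and the other 2 above it. The log2 difference was 0.33 (SE 0.17, 95% CI -0.08 to 0.75, limma, adjusted p = 0.204), and its direction turned in TPM, which scales every library to the same sum (-0.13, where the median of all genes shifted to -0.41) and with the GC and length correction (-0.25). Without TNF-α replicate 1 it was 0.45 and past the threshold (limma, adjusted p = 0.00791), as were 79.4% of all tested genes in that fit. In annotation, 54.9% of the exonic bases of FADD are shared with the antisense gene AP000879.1, which had 0 reads in all 6 libraries. The library kit does not mark strand, and whether reads from the shared bases were counted for FADD was not tested. The place of FADD in the order of levels and the size of its ratio to CASP8 carry this limit.

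RIPK1 (ENSG00000137275, chr6:3063991-3115187, plus strand) encodes the kinase that decides between survival and death at the receptor. It measured 22.1, 21.6 and 22.8 FPKM in NC and 23.7, 24.2 and 23.2 in TNF-α. All TNF-α libraries lay above all NC libraries, but by little, at 1.07, 1.09 and 1.05 times the NC mean. The log2 difference was 0.09 (SE 0.12, 95% CI -0.19 to 0.38, limma, adjusted p = 0.543), and its direction turned in TPM (-0.40, near the shift of all genes) and with quantile normalization (-0.17). A change of the size seen in MLKL lies outside this interval.

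RIPK3 (ENSG00000129465, chr14:24336021-24340045, minus strand), the kinase that phosphorylates MLKL in necroptosis, was listed at 0 in all 6 libraries. A count of 0 reads allows up to 3 reads, which corresponds to an FPKM of 0.0255 to 0.0379 depending on the library. It was not alone in this, as 3570 of 19951 protein-coding genes (17.9%) had 0 reads in every library. FAF1, a FADD-binding factor that most cells express and that was picked out after its value was seen, was listed at 0 to 0.0205. Whether a value of 0 in these data means that a transcript was absent was not tested, for either gene. In annotation, 11.0% of the exonic bases of RIPK3 are shared with AL096870.1, also at 0 reads.

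MLKL (ENSG00000168404, chr16:74671855-74700960, minus strand), the executor of necroptosis, measured 5.95, 5.33 and 5.64 FPKM in NC and 9.25, 11.4 and 11.02 in TNF-α. Every TNF-α library was clear of the NC range, at 1.64, 2.01 and 1.95 times the NC mean. The means were 5.64 ± 0.308 and 10.5 ± 1.13 (SD, n = 3 each) and the log2 difference was 0.79 (SE 0.13, 95% CI 0.48 to 1.11). Its adjusted p of 0.0623 (limma; 0.000739 before adjustment) was the lowest of the 6 and missed the threshold. In TNF-α replicate 1, whose composition resembled that of the NC libraries, the change in MLKL stood at percentile 97.4 of all tested genes, and in replicates 2 and 3 at percentiles 79.1 and 82.5. The value stayed above 0 in all 15 alternatives (0.38 to 0.89) and passed the threshold in 4 of them, with limma adjusted p from 2.76e-05 to 0.389 over the 15. In 1 of these 4, TNF-α replicate 1 alone against NC, it was 0.63, with a spread taken from the NC libraries only. Once GC content and length were corrected for it was 0.84 (limma, adjusted p = 0.0262, where 2.79% of all genes passed). Without TNF-α replicate 1 it was 0.88 (limma, adjusted p = 2.76e-05), in a fit that put 79.4% of all tested genes past the threshold. Quantile normalization gave 0.78 (limma, adjusted p = 0.0398, where 185 of 12136 genes passed), and TPM gave 0.38. No other annotated gene shares exonic bases with MLKL.

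CASP8 (ENSG00000064012), the initiator caspase of death receptor apoptosis and the brake on necroptosis, measured 3.37, 3.38 and 3.23 FPKM in NC and 4.198, 3.03 and 2.93 in TNF-α. TNF-α replicate 1 lay above every NC library and replicates 2 and 3 below every one. The log2 difference was 0.01 (SE 0.15, 95% CI -0.35 to 0.36, limma, adjusted p = 0.971), with no direction that held across settings, from -0.45 in TPM to 0.26 without TNF-α replicates 2 and 3. At this spread an increase as large as that of CFLAR is outside the interval.

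CASP10 (ENSG00000003400), the neighbouring initiator caspase, was close to the floor with 15, 9 and 12 reads in NC and 15, 8 and 9 in TNF-α, equal to 0.0546, 0.0361 and 0.0492 FPKM against 0.0614, 0.0406 and 0.0488. The sums were 36 reads (exact Poisson 95% interval 25.2 to 49.8) and 32 reads (21.9 to 45.2), intervals that cover counting error only. It was below the filter on low values and was not tested with limma, and the FPKM values overlapped (exact permutation p = 0.8, two-sided). The intervals of the sums overlapped.

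CFLAR (ENSG00000003402) restrains caspase-8 through its product c-FLIP. It measured 2.87, 2.86 and 2.80 FPKM in NC and 4.61, 4.38 and 4.49 in TNF-α. Every TNF-α library was clear of the NC range by a similar amount, at 1.62, 1.54 and 1.58 times the NC mean. The means were 2.84 ± 0.0382 and 4.49 ± 0.111 (SD, n = 3 each), and the log2 difference of 0.52 (SE 0.11, 95% CI 0.26 to 0.77, on the log2(FPKM + 1) scale, which understates folds at this level) missed the threshold (limma, adjusted p = 0.112; 0.00241 before adjustment). The change in CFLAR stood at percentiles 96.6, 65.7 and 70.3 of all tested genes in TNF-α replicates 1, 2 and 3. CFLAR is a long gene, with 22529 bases of merged exons and 14672 in its principal transcript. The 96 tested genes with over 20 kb of merged exons had a median of -0.01 in TNF-α replicate 1. In replicates 2 and 3 that median was -0.82 and -0.78, where CFLAR was 0.49 and 0.52 above the NC mean. Among those 96 genes, 8 had an estimate above 0 and 4, CFLAR included, had TNF-α values all above NC. The change in CFLAR was 0.55 for TNF-α replicate 1 alone against NC, where only the NC libraries gave a spread. It passed the threshold for replicates 2 and 3 against NC (0.50, limma, adjusted p = 0.000386), as did 79.4% of all tested genes. Correcting for GC content and length gave 1.10 and TPM gave 0.15. Over 15 alternatives the limma adjusted p ran from 0.000386 to 0.664. Of the exonic bases of CFLAR, 6.60% are shared with IMPDH1P10, 3.45% with CFLAR-AS1 and 1.98% with AC007283.1, none of which exceeded 39 reads in a library.

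**Figure D2:**
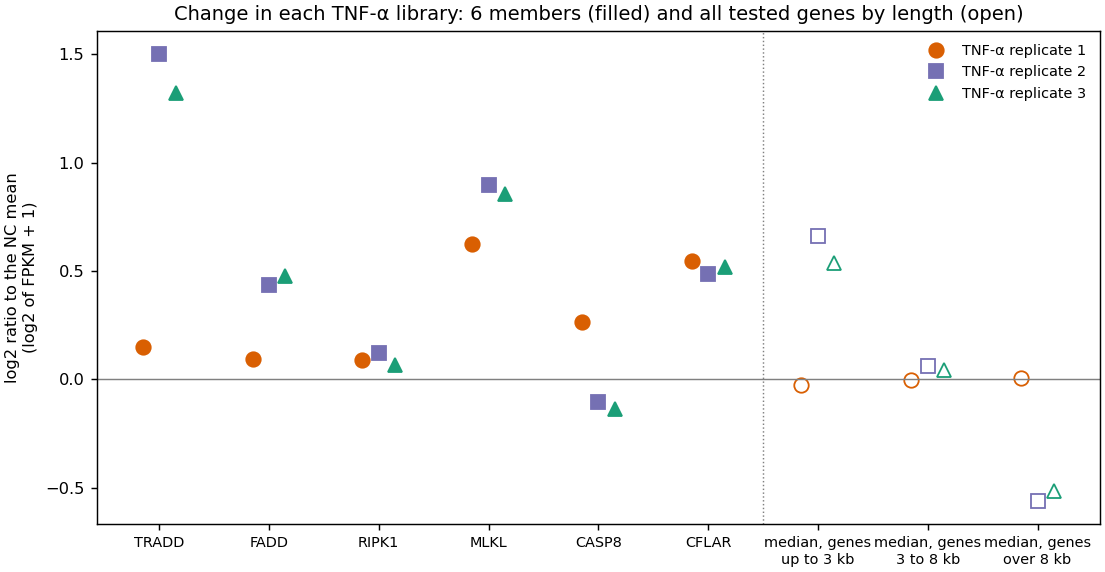
Log2 ratio to the NC mean (y axis, on log2(FPKM + 1)) in each TNF-α library for the 6 tested members (filled) and the median of tested genes in 3 classes of length (open). The median of genes over 8 kb falls to -0.56 and -0.52 in replicates 2 and 3, while CFLAR lies at 0.55, 0.49 and 0.52 in replicates 1 to 3.

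The RNA of the inhibitor relative to that of the caspase was then followed within each library, where a scaling factor common to all genes cancels. A difference that depends on gene length does not cancel, and the merged exons of CFLAR and CASP8 measure 22529 and 7243 bases. How far length shaped the ratio was not tested. In TNF-α replicates 1, 2 and 3, CFLAR was 4.61, 4.38 and 4.49 FPKM and CASP8 4.198, 3.03 and 2.93. The ratio of CFLAR to CASP8 was 0.852, 0.844 and 0.866 in NC and 1.10, 1.45 and 1.53 in TNF-α, so that the groups did not overlap. The mean log2 ratio was higher by 0.66 with TNF-α (exact permutation p = 0.1, the smallest that 3 against 3 allows, and 0.3 adjusted over 3 ratios), and it ran from 0.56 to 0.80 when each library was left out. The crossing of 1 depends on merged exon lengths, since per principal transcript CASP8 stayed above CFLAR in both groups (14.8 against 4.36 in NC and 15.05 against 6.90 in TNF-α). The ratio of RIPK1 to CASP8 was 6.56, 6.38 and 7.06 in NC and 5.64, 8.01 and 7.92 in TNF-α, with TNF-α replicate 1 below and the other 2 above NC (log2 difference 0.09, exact permutation p = 0.7). The ratio of FADD to CASP8 was 2.81, 2.32 and 3.295 in NC and 2.37, 4.25 and 4.52 in TNF-α, again with replicate 1 inside the NC range (log2 difference 0.36, exact permutation p = 0.3, adjusted 0.45).

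**Figure D3:**
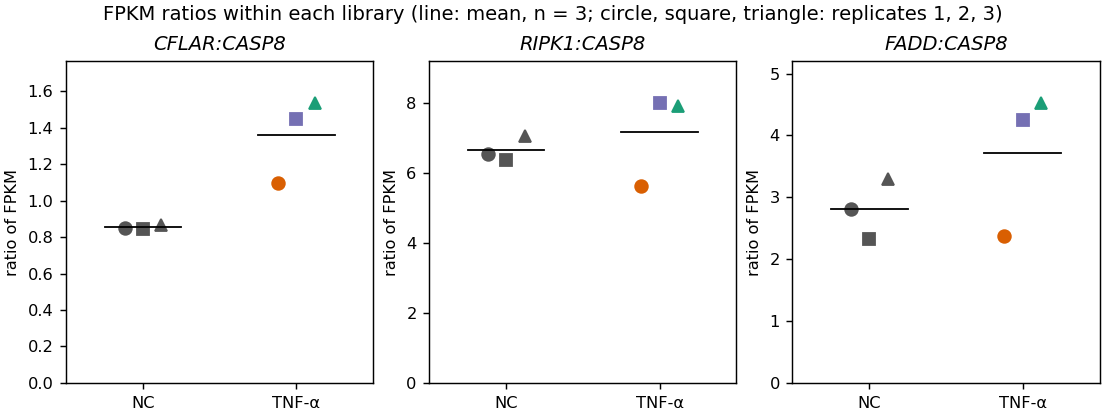
Ratio of FPKM between a member and CASP8 (y axis, linear from 0) in each NC (grey) and TNF-α (coloured) library, with lines at the mean of 3. The CFLAR:CASP8 ratio separates the groups, while RIPK1:CASP8 and FADD:CASP8 overlap.

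Around the complex, 6 lists with 78 genes of the death pathway were counted. Of these, 65 were tested and 6 passed the threshold (limma), each of them higher with TNF-α, against 1.01% of all tested genes. With limma-voom on the recovered reads 5 passed, where 109 of all 12136 genes did. An unadjusted p under 0.05 in either direction was reached by 30 of the 65, against 24.2% of all tested genes. The median log2 difference was 0.32. The count of 6 became 0 when NC replicate 1, 2 or 3 or TNF-α replicate 3 was left out. In these fits 17, 10, 13 and 20 of all 12136 tested genes passed. Without TNF-α replicate 2 the count was 3, where 42 of all tested genes passed. It became 53 when TNF-α replicate 1 was dropped, where 79.4% of all tested genes passed, and 16 when that library alone stood for its group, where 6.03% did.

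Among the death receptors and ligands, 2 of 7 tested genes passed the threshold, higher with TNF-α (13 listed, median 0.57), against 1.01% of all tested genes. Relative to the NC mean, the median of this list was 0.39, 0.63 and 0.70 in TNF-α replicates 1, 2 and 3. TNFRSF10B, the TRAIL receptor DR5, measured 37.6, 36.3 and 39.3 FPKM in NC and 76.6, 76.0 and 69.2 in TNF-α, high in all 3 treated libraries (log2 difference 0.95, SE 0.13, limma, adjusted p = 0.0384). TNF itself rose from a mean of 0.157 to 2.39 FPKM (1.52, SE 0.22, limma, adjusted p = 0.0432), with 1 NC library at 0. It met the filter on low values only through the TNF-α libraries, so that the filter favoured this call and its place among the 2 and the 6. TNFRSF1A, which encodes TNFR1, measured 37.0, 35.4 and 39.5 in NC and 32.9, 58.4 and 49.1 in TNF-α, overlapping groups (0.28, limma, adjusted p = 0.354). The second TNF receptor, TNFRSF1B (named after its values were seen), was listed at 0 in 5 of 6 libraries, with 0.0331 FPKM in the sixth.

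Of the genes that control RIPK1 by ubiquitin or phosphorylation, all 24 were tested (median 0.38, 16 above 0). The threshold was passed by 4, higher with TNF-α, against 1.01% of all tested genes. Relative to the NC mean, the median of the 24 was 0.19, 0.30 and 0.36 in TNF-α replicates 1, 2 and 3. BIRC3, the ubiquitin ligase cIAP2, rose from 2.91 ± 0.132 to 21.0 ± 6.74 FPKM (log2 difference 2.45, limma, adjusted p = 0.00996). TNFAIP3, which encodes the ubiquitin editor A20, rose from 3.93 ± 0.428 to 34.4 ± 20.5 (2.70, adjusted p = 0.0421), and its partner TNIP1 from 21.6 ± 1.82 to 151 ± 46.1 (2.70, adjusted p = 0.0112). IKBKE, a kinase related to TBK1, rose from 4.29 ± 0.787 to 14.9 ± 2.47 (1.59, adjusted p = 0.0197). These are negative regulators of the death complex or kinases of its survival arm, but the 4 were picked by the threshold. Of all 24, 13 had every TNF-α library above every NC library, against 14.8% of all tested genes. Every TNF-α library lay below NC for 1 of the 24, as for 1858 of all 12136 tested genes. TRAF2, the adaptor that brings the ubiquitin ligases to the receptor, measured 9.92, 10.8 and 12.2 FPKM in NC and 14.8, 43.1 and 30.0 in TNF-α, a distribution over libraries like that of TRADD (1.22, SE 0.37, limma, adjusted p = 0.195).

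None of the tested genes passed in the other 4 lists (limma). At an unadjusted p under 0.05, reached by 24.2% of all tested genes, were 2 of 5 genes of the other death effector domain and RIP kinase list, 2 of 14 effector caspase and mitochondrial genes, 2 of 9 necroptosis regulators and 5 of 6 inflammatory caspase and pyroptosis genes. Their medians were 0.43, 0.01, 0.31 and 0.96. Relative to the NC mean, the first list had medians of 0.13, 0.57 and 0.41 in TNF-α replicates 1, 2 and 3. The second had -0.03, 0.08 and 0.04, and the third 0.17, 0.27 and 0.49. The inflammatory caspase and pyroptosis list had 0.24, 1.33 and 1.18, so that its median was carried mostly by replicates 2 and 3. The following genes of these lists were chosen after their values were seen. RIPK2, the kinase of the NOD receptors, was 8.63, 8.59 and 8.11 FPKM in NC and 11.9, 12.04 and 11.3 in TNF-α, even across the treated libraries (0.43, limma, adjusted p = 0.178). BID, which links caspase-8 to the mitochondria, was 6.52, 6.28 and 6.74 in NC and 11.1, 22.6 and 20.0 in TNF-α (1.28, limma, adjusted p = 0.115). CASP4, an inflammatory caspase, was 7.54, 7.01 and 7.21 in NC and 11.7, 19.3 and 18.5 in TNF-α (limma, adjusted p = 0.101). APAF1 was lower, at 6.09, 6.21 and 5.92 in NC and 5.87, 1.14 and 0.859 in TNF-α. CASP8AP2 was 6.78 to 7.43 in NC and 1.11 and 1.38 in TNF-α replicates 2 and 3, with replicate 1 above NC. Their log2 differences were -1.23 and -1.20 (limma, adjusted p = 0.195 for each). The estimate was above 0 for 4 of 5, 8 of 14, 6 of 9 and 5 of 6 tested genes, in the order of the lists above.

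**Figure D4:**
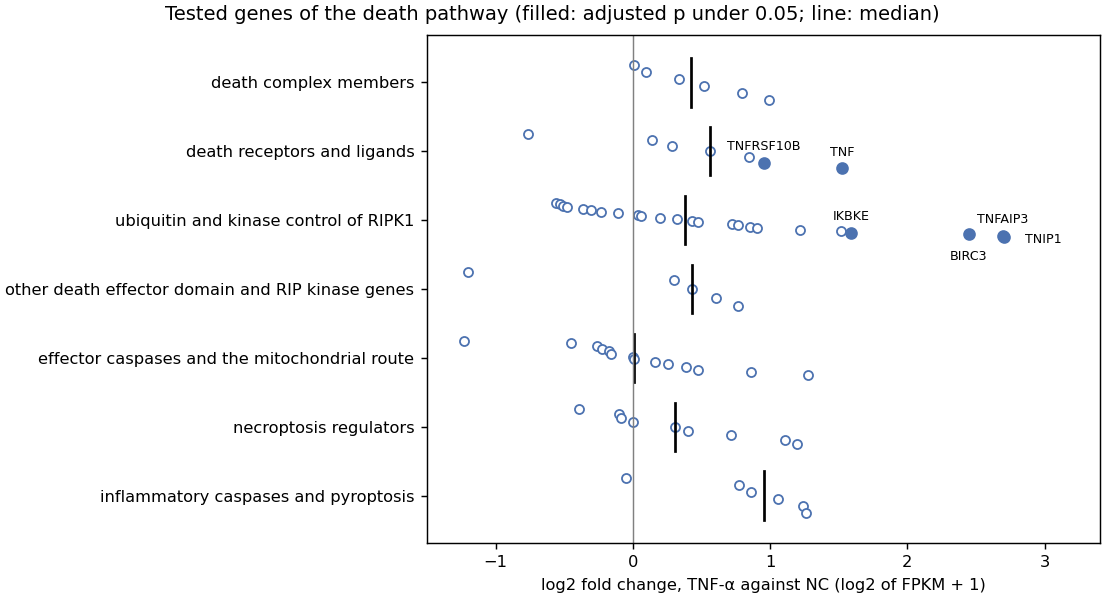
Log2 fold change of TNF-α against NC (x axis, on log2(FPKM + 1)) for the tested death complex members and the tested genes of 6 pathway lists (rows), with the median of each as a line. Filled points, the 6 genes with a limma adjusted p under 0.05, lie to the right of 0 in the receptor and RIPK1 control lists, and no member is filled.

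The tested genes with the profile most like each member over the 6 libraries were listed by Pearson's r of log2(FPKM + 1), as a description over points that share libraries. CFLAR ran closest to the chemokine gene CXCL8 (r = 0.9996) and to GFPT2 (r = 0.9993), an enzyme of hexosamine synthesis. CXCL8 measured 26.5 to 31.6 FPKM in NC and 418 to 638 in TNF-α. MLKL ran closest to ROBO4 (r = 0.999) and the transcription factor gene MAFF (r = 0.998), the latter at 2.09 to 2.77 and 6.73 to 11.4 FPKM. ROBO4, at 0.334 to 0.437 in NC and 1.32 to 1.96 in TNF-α, met the filter only through the TNF-α libraries, which favours such a match. TRADD ran closest to the noncoding RNA GAS5 (r = 0.9999) and to TAGLN2 (r = 0.9997), both of which, like TRADD, were near NC in TNF-α replicate 1 (GAS5 at 29.2 FPKM against 25.8 to 27.3) and far above it in replicates 2 and 3 (67.3 and 60.8). CASP8 had NRCAM (r = 0.991) and DDX52 (r = 0.985), RIPK1 had PDCD11 (r = 0.999) and DMWD (r = 0.990), and FADD had UAP1L1 and MIR7111 (both r = 0.99).

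**Figure D5:**
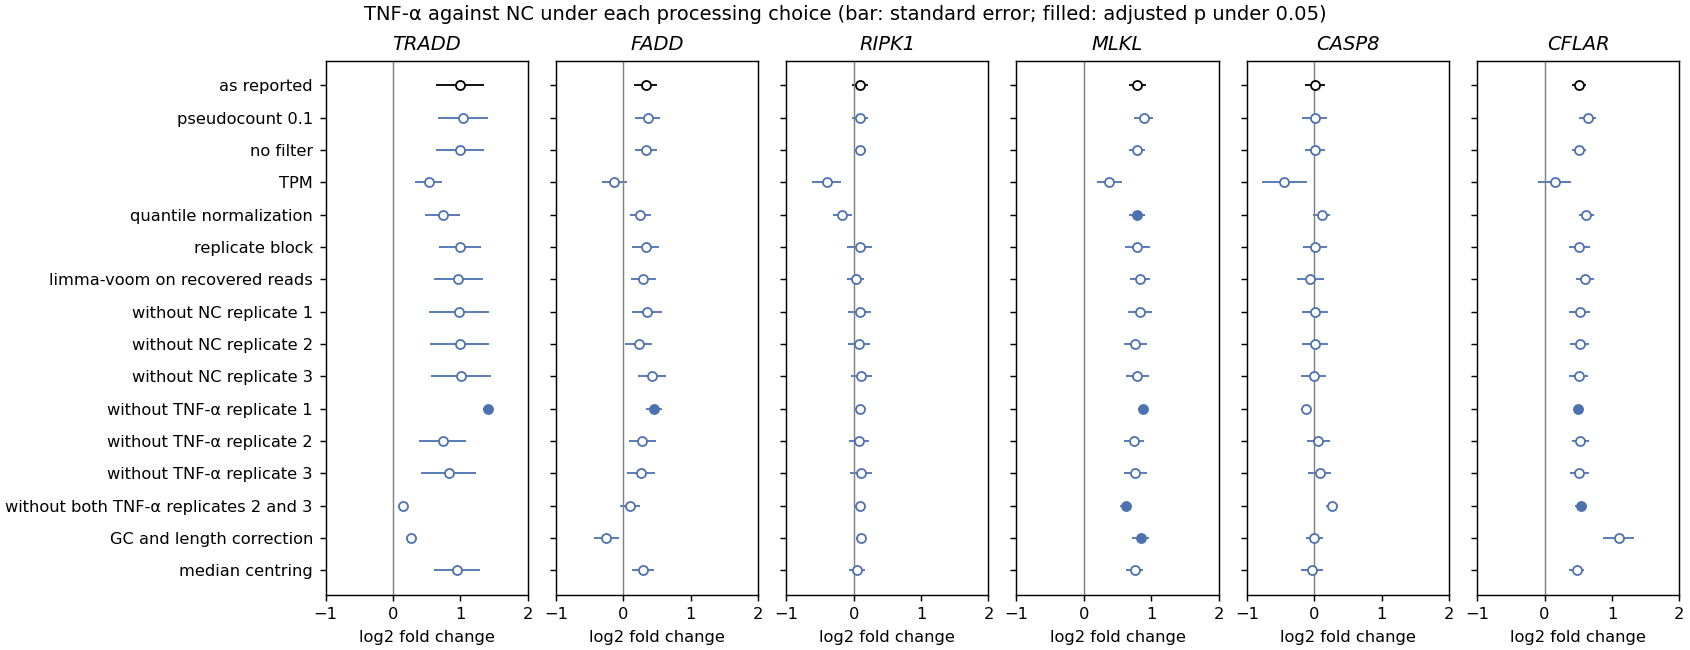
Log2 fold change of TNF-α against NC (x axis) of the 6 tested members as reported (black) and under 15 other processing choices (blue, rows), with the standard error as a bar and filled points for a limma adjusted p under 0.05. MLKL and CFLAR stay to the right of 0 in every row, from 0.38 to 0.89 and from 0.15 to 1.10, while FADD, RIPK1 and CASP8 cross it.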

How the data were processed

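RNA was extracted, poly(A)-selected with oligo(dT) beads and made into libraries with a kit that does not mark strand. The authors deposited FPKM values per gene with the length of each gene, and their processing notes name HISAT2 2.0.5, StringTie 1.3.3b, featureCounts 1.5.0, DESeq2, edgeR and GATK 3.7 without roles. The use of strand in counting and the genome build are not given in the sources used here, but the positions and lengths of all 58735 genes equal those of GENCODE 29 (GRCh38). Dividing out length and library size gave whole reads for 100% of values (tolerance 0.01). A further 6 columns match no described sample and were not used. FPKM divides by a scaled library size, which was 0.925 to 0.959 of the reads in 4 libraries and 0.693 and 0.759 in TNF-α replicates 2 and 3, and thereby raises every value of those 2 libraries.

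Groups and replicate numbers came from the sample labels. log2(FPKM + 1) was compared with limma 3.58.1 (R 4.3.3, trended prior) over 12136 genes with FPKM of at least 1 in at least 3 libraries, and p-values were adjusted over all of them. The fitting step was tested on simulated data. Single values and ratios were compared by exact permutation in scipy 1.17.1. Alternatives were a pseudocount of 0.1, no filter, TPM, quantile normalization, a replicate block, limma-voom on recovered reads and leaving out each library. Chosen after seeing the data were leaving out TNF-α replicates 2 and 3 together, a GC and length correction, median centring, and levels per principal transcript. Where TNF-α replicate 1 stood alone, its spread was taken to be that of the NC libraries. The members, gene lists and motifs were chosen with earlier results of these data known. Genes named are all members, up to 5 genes past the threshold of each list with the largest changes, TRAF2 and TNFRSF1A, and the 2 genes most correlated with each member, besides those said to be chosen after their values were seen. Promoter sequences are from RefSeq (GRCh38.p14), matched by symbol for 5 of 8 members.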

Additional observations from a re-analysis of the deposited data

How the results depend on the processing

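Over the 15 alternatives, TRADD (0.15 to 1.41), MLKL (0.38 to 0.89) and CFLAR (0.15 to 1.10) kept their direction. The number of genes past the threshold (123 over all tested genes, 0 members, 6 pathway genes) became 58, 0 and 2 without a filter (31662 genes tested), 71, 0 and 2 in TPM (where the same filter passed 15983 genes), 185, 1 and 6 with quantile normalization, 732, 2 and 16 without TNF-α replicates 2 and 3, and 338, 1 and 11 with the GC and length correction. Leaving out each library gave 10 to 9630 over all genes, 0 to 4 members and 0 to 53 pathway genes. The cause of these shifts was not tested. In TPM FADD (-0.13), RIPK1 (-0.40) and CASP8 (-0.45) turned in direction, with the median of all genes at -0.41. RIPK1 also turned with quantile normalization (-0.17), FADD with the GC and length correction (-0.25), and CASP8 with limma-voom (-0.059), median centring (-0.034) and without NC replicate 3 (-0.0091) or TNF-α replicate 1 (-0.12). MLKL passed the threshold with quantile normalization (0.78) and with the correction (0.84). Without TNF-α replicates 2 and 3, where only NC gave a spread, MLKL was 0.63 and CFLAR 0.55. Leaving out each library gave 0.74 to 1.41 for TRADD, 0.23 to 0.45 for FADD, 0.74 to 0.88 for MLKL, -0.12 to 0.081 for CASP8 and 0.50 to 0.53 for CFLAR, with the upper end of TRADD, FADD and MLKL and the lower end of CFLAR past the threshold, all without TNF-α replicate 1.

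With a replicate block, 24 genes, 0 members and 0 pathway genes passed. Deviations of same-numbered libraries from their group means correlated at -0.01, -0.18 and 0.12, and not every library correlated best with its own number. With 3 libraries per group, these correlations cannot tell whether same-numbered cultures were handled together. CASP10 and RIPK3 were below the filter, and whether depth set their values was not tested.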
